A study of Homo sapiens with 6 samples.

Results

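The olfactory receptor gene clusters were taken as 13 windows of the human genome (build hg19) on chromosomes 1, 7, 9, 11, 12, 14, 17 and 19, 8.8 Mb in all. They held 445 of the 248031 merged accessible regions, a region being a stretch covered by overlapping peaks of any library. The windows were set by position and not by any measured value. Each was compared with its flanks, stretches of up to the same length on either side, 13.1 Mb in all with 1450 regions.

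The material was U2OS, an established human osteosarcoma cell line, studied with ATAC-seq (a transposase tags open chromatin). Wild-type cells (WT) and their CRAMP1 knockout counterparts (CRAMP1-KO), which the study's title ties to the making of linker histone H1, gave 3 libraries each. No treatment was listed for either genotype, and whether the knockout was a single clone was not given in the sources used here. Nothing in the labels says that replicates came from separate cultures, so p-values measure the spread between these libraries only. The lists held 132686 to 198875 peaks, the longest and narrowest being WT replicate 1, and their read depth is unknown. A peak list cannot check the cell type or the targeted gene.

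Olfactory receptors are G protein-coupled receptors that bind odorants in the nose. Their genes lie in tandem arrays on many chromosomes, the coding part of each gene is a single exon, and each olfactory neuron uses a single allele while the other copies stay packed in heterochromatin. In most other cell types most of these genes are silent. Linker histone H1 binds the nucleosome at its entry and exit DNA and favours compact chromatin.

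In the RefSeq gene order (GRCh38.p14), the stretches from the first to the last receptor gene of the 13 clusters held 217 coding receptor genes, 147 receptor pseudogenes and 20 other coding genes. The first and last gene of each cluster were chosen by hand from the band of its window, so these counts describe the clusters and not the exact hg19 windows. The 11q11 cluster was the largest with 45 coding receptors and 47 pseudogenes, followed by 1q44 with 43 and 13. Of the 20 other genes, 11 lay in the 11q12 cluster, among them LPXN, which codes for the adhesion protein leupaxin, CNTF, a neurotrophic cytokine, the glycine acyltransferase genes GLYAT and GLYATL1, and FAM111A, a protease gene. The 7q35, 9q31, 9q33, 11p11, 12q13, 14q11 and 17p13 clusters held 0 other coding genes. The peaks are in hg19 and were not assigned to genes, since no annotation of that build was used here.

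The RefSeq start of 180 of the 217 coding receptors could be matched to 300 bases of sequence, 250 before and 50 after the start. These receptor starts had a median GC content of 37.0% and a median of 1 CpG dinucleotide, against 58.7% and 14 over all 35116 starts of the table. Only 2 receptor starts, those of OR2L13 and OR3A2, were CpG-rich (an observed to expected CpG ratio over 0.6 and a GC content over 50%), or 1.11%, against 46.8% of all starts. Another 36 receptor starts had no CpG. OR7C1 and OR7A5 are listed with the same stretch, which has no CpG and is counted for each gene. Of the other genes inside the clusters, 5 of 17 matched starts were CpG-rich, those of TRIM58, LPXN, ZFP91, GLYATL1 and FAM111A. For 80 of the 180 receptors the gene model begins at the ATG, so the transcription start may lie further upstream, and both CpG-rich receptor starts were among the 100 others.

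The following starts show that contrast, with each CpG in capitals, 5′ to 3′ on the gene's strand in GRCh38.p14. OR2L13 and OR3A2 are the CpG-rich receptors, OR8J3 is one of several starts of the largest cluster with no CpG (the one of lowest GC content among those whose gene model does not begin at the ATG), and ZFP91, a zinc finger gene inside the 11q12 cluster, had the highest CpG ratio of the other genes.
OR2L13, chr1:247936927-247937226, plus strand: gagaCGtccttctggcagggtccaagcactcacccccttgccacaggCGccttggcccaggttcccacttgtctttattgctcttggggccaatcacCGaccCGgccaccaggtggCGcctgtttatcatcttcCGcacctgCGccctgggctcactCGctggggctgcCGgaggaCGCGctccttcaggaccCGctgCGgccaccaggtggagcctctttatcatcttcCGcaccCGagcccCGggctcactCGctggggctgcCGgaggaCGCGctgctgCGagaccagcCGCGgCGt
OR3A2, chr17:3386259-3386558, minus strand: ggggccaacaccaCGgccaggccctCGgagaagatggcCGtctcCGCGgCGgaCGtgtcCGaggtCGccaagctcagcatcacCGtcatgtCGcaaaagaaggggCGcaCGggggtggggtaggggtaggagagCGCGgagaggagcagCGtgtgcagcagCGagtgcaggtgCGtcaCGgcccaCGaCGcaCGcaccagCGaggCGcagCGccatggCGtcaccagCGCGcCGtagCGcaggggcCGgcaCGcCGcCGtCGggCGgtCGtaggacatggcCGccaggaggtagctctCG
OR8J3, chr11:56140152-56140451, minus strand: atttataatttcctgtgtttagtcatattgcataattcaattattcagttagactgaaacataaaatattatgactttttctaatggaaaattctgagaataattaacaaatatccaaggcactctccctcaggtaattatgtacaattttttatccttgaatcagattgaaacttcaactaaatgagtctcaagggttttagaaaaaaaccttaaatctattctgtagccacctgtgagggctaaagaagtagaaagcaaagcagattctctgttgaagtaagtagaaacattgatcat
ZFP91, chr11:58578813-58579112, plus strand: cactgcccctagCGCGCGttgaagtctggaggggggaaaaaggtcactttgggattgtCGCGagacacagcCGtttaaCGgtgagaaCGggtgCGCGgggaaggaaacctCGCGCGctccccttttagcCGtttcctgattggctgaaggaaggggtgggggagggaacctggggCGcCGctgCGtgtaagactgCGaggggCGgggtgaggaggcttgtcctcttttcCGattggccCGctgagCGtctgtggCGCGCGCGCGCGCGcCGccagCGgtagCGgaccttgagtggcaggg
The printed starts held 24 CpG for OR2L13, 39 for OR3A2, 0 for OR8J3 and 32 for ZFP91. The OR3A2 stretch lies just past the start of OR1R1 on the plus strand (3385680 to 3385979), whose gene model begins at the ATG. It may therefore overlap the OR1R1 coding exon, so its CpG need not belong to a promoter. That overlap was not tested. The letters TAATTA, a core bound by homeodomain factors, were found on either strand in 39 of the 180 receptor starts (21.7%) and in 4.84% of all starts. Such a match is a description of the letters in this window, and the receptor starts are also richer in A and T.

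The receptor windows were poor in peaks beside their flanks in each of the 6 libraries. WT libraries had 38.5, 26.4 and 23.98 peaks per Mb in the windows and 90.9, 72.1 and 65.3 in the flanks. CRAMP1-KO libraries had 23.9, 26.6 and 29.5 peaks per Mb in the windows and 63.1, 64.9 and 73.2 in the flanks. Window and flank values did not overlap in either genotype, whereas the genotypes overlapped within the windows. The median window had 31.1 peaks per Mb, against 42.3 for the median 0.5-Mb tile of the genome, and 37.7% of all 5626 tiles had fewer peaks per Mb than it.

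On the log2 scale the peak density of the windows against their flanks was -1.24, -1.45 and -1.45 in WT against -1.40, -1.29 and -1.31 in CRAMP1-KO, means of -1.38 ± 0.12 and -1.33 ± 0.061 (SD, n = 3). The difference of 0.045 was smaller than the spread within WT (exact permutation test, two-sided, p = 0.8, 0.9 after Benjamini-Hochberg adjustment over 7 measures; 3 against 3 cannot go below 0.1). Peaks in the windows made up 16.1 ± 0.89 per 10000 of the list in WT against 16.3 ± 0.56 in CRAMP1-KO (p = 0.8, exact permutation test). Bases under peaks, which combine number and width, had a log2 ratio of -1.67 ± 0.13 in WT against -1.63 ± 0.066 in CRAMP1-KO (n = 3, exact permutation p = 0.8).

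The peaks inside the clusters were also narrower and had lower summit pileups than those outside. Median widths in the windows were 315, 422.5 and 324 bases in WT against 402.5, 405 and 411.5 in CRAMP1-KO, beside 385.5, 471 and 417 against 507, 484 and 505.5 bases in the flanks. Flank peaks were thus wider in each CRAMP1-KO library than in any WT library, while in the windows WT replicate 2 was the widest of the 6. The separation was not particular to the flanks: median widths over whole lists were 351, 425 and 378 in WT against 463, 430 and 457 in CRAMP1-KO. Relative to the flanks the log2 width ratio was -0.27 ± 0.11 in WT against -0.30 ± 0.038 in CRAMP1-KO (n = 3, exact permutation p = 0.8). Summit pileup, the number of reads or fragments over a peak's summit as solved from its fold enrichment and p-value, had medians of 27, 38 and 25 in WT windows and 32.5, 31 and 39 in CRAMP1-KO windows. In the flanks it was 42, 51 and 38.5 in WT against 43, 42 and 53 in CRAMP1-KO. The log2 pileup ratio was -0.56 ± 0.12 in WT against -0.43 ± 0.021 in CRAMP1-KO (n = 3, exact permutation p = 0.3), and the groups overlapped.

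The background against which a peak is scored is the larger of a genome-wide rate and a local rate, so a peak at the lowest background of its library sits where the surrounding signal is no higher than the genome-wide rate. In the windows 62.8%, 57.8% and 51.7% of peaks in WT against 50.0%, 55.1% and 55.0% in CRAMP1-KO were at that lowest value. In the flanks the shares were 23.95%, 22.5% and 18.1% in WT against 19.7%, 24.03% and 25.9% in CRAMP1-KO. The excess in the windows was 38.9, 35.3 and 33.6 percentage points in WT against 30.3, 31.1 and 29.1 in CRAMP1-KO. These do not overlap: the means were 35.9 ± 2.7 and 30.2 ± 1.0 (SD, n = 3), a difference of -5.73 percentage points (exact permutation p = 0.1, the smallest possible, and 0.7 after adjustment over 7 measures). It stayed negative, from -3.82 to -6.89, with fewer or stronger peaks, shorter flanks and any single library left out, with exact permutation p of 0.1, or 0.2 without CRAMP1-KO replicate 3. The median background of the windows lay at or near the lowest value in each library, so its log2 ratio to the flanks, -0.70 ± 0.14 in WT against -0.69 ± 0.05 in CRAMP1-KO (n = 3), mostly reflects the flanks.

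**Figure D1:**
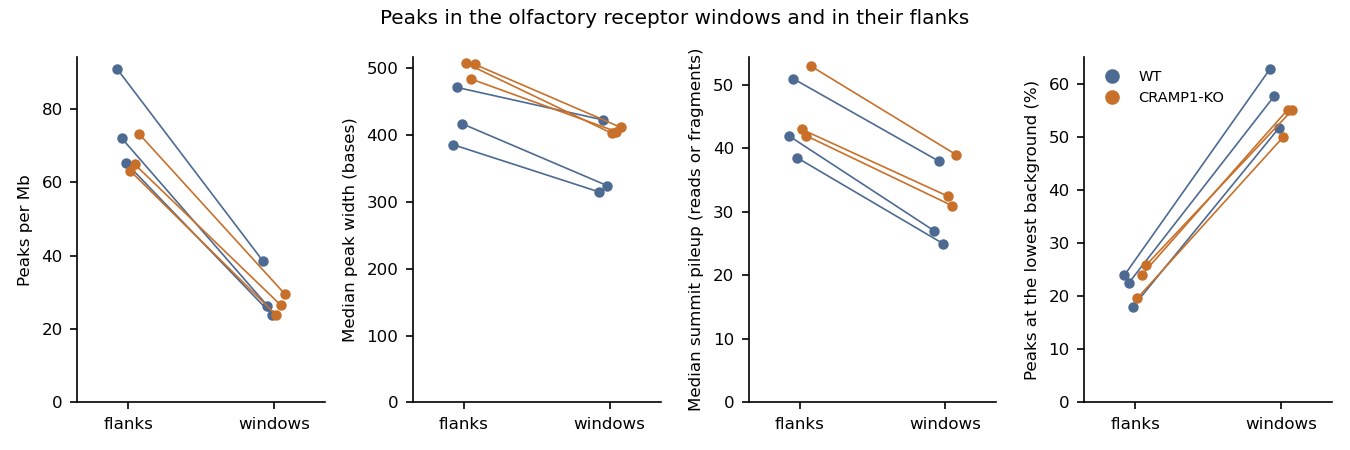
Each line joins the flanks and the windows of a library, WT in blue and CRAMP1-KO in orange; from left to right the axes give peaks per Mb, median peak width in bases, median summit pileup and the percentage of peaks at the lowest background. Density falls from between 63.1 and 90.9 in the flanks to between 23.9 and 38.5 in the windows, and the share at the lowest background is 50.0% to 62.8% in the windows.

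Every one of the 13 windows lay below its flanks in peak density by the mean of the 6 libraries. In 12 of them each of the 6 libraries was below, the exception being the distal 19p13 window with 5 of 6. Over the genome 51.1% of 5439 half-megabase tiles were below their own flanks, and 8.46% had a log2 ratio under the -0.95 of the median window. Covered bases and median widths were also below the flanks in 13 of 13 windows, pileup in 12 of 13, and the share at the lowest background was higher than in the flanks in 13 of 13. The pileup exception was 9q33, at 0.13. At 14q11 (mean -0.0087) pileup lay below the flanks in 3 libraries and above in 3. At 11q12 (-0.043) and 17p13 (-0.13) pileup lay below in 4 and above in 2. By single library the widths of 9q33, 14q11 and 17p13 lay below the flanks in 3 and above in 3, and the mean log2 width ratio of 9q33 was -0.0060.

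The 11q11 window (chromosome 11, 55 to 56.6 Mb), around the largest receptor array, had the fewest peaks per Mb. Bases under peaks per Mb were lower still in the 9q31 window, in all libraries but CRAMP1-KO replicate 3. The 11q11 window had 14.4, 8.75 and 8.13 peaks per Mb in WT against 9.38, 10.6 and 10.6 in CRAMP1-KO, beside 99.2, 83.3 and 75.0 against 66.7, 66.7 and 87.5 in its flank. All values of the window lay under all values of the flank, and the genotypes overlapped. Its log2 ratio was -3.04 ± 0.25 in WT against -2.81 ± 0.20 in CRAMP1-KO (n = 3, exact permutation p = 0.3). Only a right flank of 1.2 Mb could be used there, because the left side falls in the chromosome's longest stretch without peaks, and that flank is shared with the 11q12 window. The window held 30 regions, 7 of them found in all 6 libraries, and its longest stretch with no peak in any library ran for 198.6 kb, from 55050373 to 55248960.

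The 11q12 window (57.8 to 59.3 Mb), whose cluster has the most other genes, was filled much more densely. Its density was 51.3, 37.3 and 38.0 peaks per Mb in WT against 34.7, 36.7 and 44 in CRAMP1-KO, with 92.2, 76.7 and 68.1 against 61.5, 61.5 and 75.9 in the flanks. Only 40.3%, 30.4% and 33.3% of its WT peaks and 25.0%, 32.7% and 34.8% of its CRAMP1-KO peaks were at the lowest background, against 80.0% to 91.3% in the 11q11 window. It held 101 regions, 43 of them in all 6 libraries, the most of any window.

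**Figure D2:**
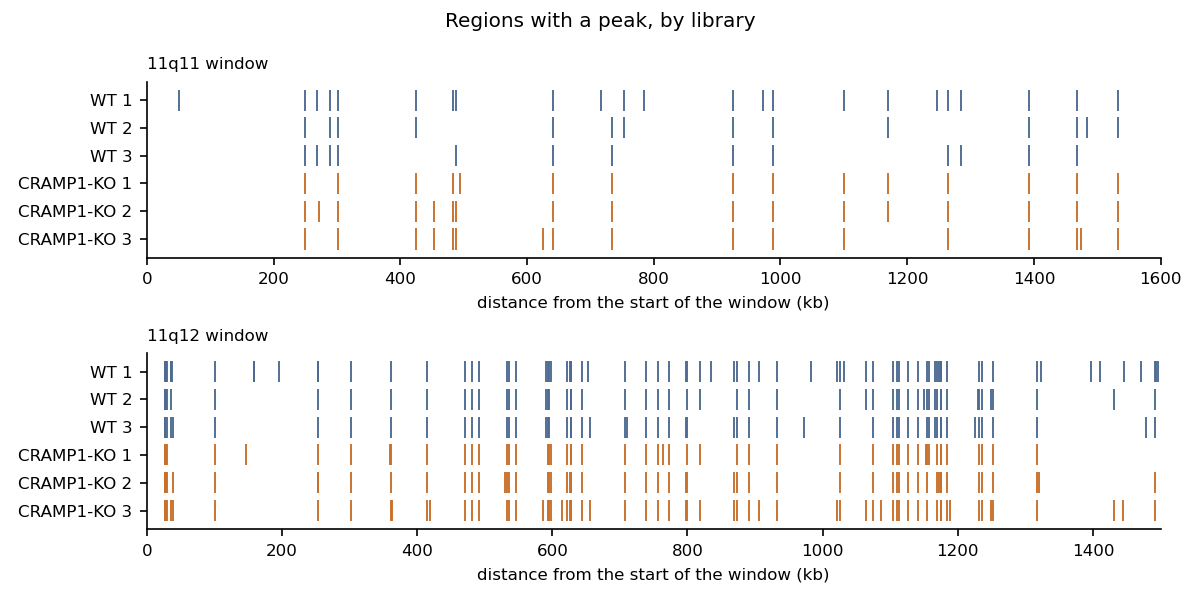
Regions with a peak are drawn as ticks by library (rows) along the 11q11 window (top) and the 11q12 window (bottom), with the distance from the window's start in kb on the x axis, WT in blue and CRAMP1-KO in orange. The 11q11 window has 30 regions in 1.6 Mb and the 11q12 window 101 in 1.5 Mb, of which 7 and 43 are found in all 6 libraries.

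Of the other windows, 17p13, 12q13, 11q24 and 9q31 had log2 density ratios of -1.98, -1.82, -1.79 and -1.62 over the 6 libraries, and proximal 19p13 had -1.45. The 9q33, 11p11, 14q11, 11q12, 1q44 and 7q35 windows were at -0.95, -0.94, -0.85, -0.84, -0.74 and -0.61, and distal 19p13 was nearest to its flanks at -0.31. The 9q31 window, with 3 to 6 peaks per library, had no region shared by all 6 libraries. In the 7q35 window each of the 4 to 7 peaks was at the lowest background in 5 of 6 libraries. Neighbours in this order overlapped in their libraries, apart from 11q11 and 17p13 and from proximal 19p13 and 9q33.

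**Figure D3:**
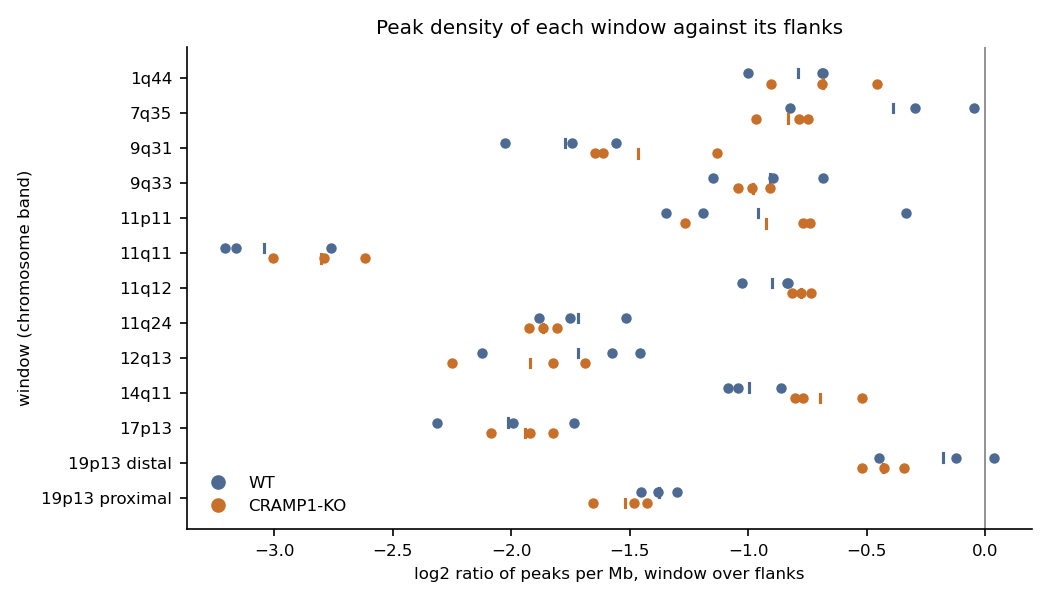
Points give, for each window (rows), the log2 ratio of its peaks per Mb to those of its flanks (x axis) in the 3 WT (blue) and 3 CRAMP1-KO (orange) libraries, and short vertical bars give group means. The 11q11 window lies lowest, at -3.04 in WT against -2.81 in CRAMP1-KO, and all windows but distal 19p13 are left of 0 in every library.

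By genotype, few windows separated. In peak density 2 of 13 windows were higher in all CRAMP1-KO libraries than in all WT libraries, 11q12 and 14q11, and 0 were lower, where 9.40% of genome tiles were higher and 8.05% lower. In 14q11 the log2 ratios were -0.86, -1.09 and -1.05 in WT against -0.52, -0.80 and -0.77 in CRAMP1-KO. The window had 69.2, 40.0 and 41.5 peaks per Mb in WT against 46.2, 43.1 and 47.7 in CRAMP1-KO, while its flanks had 127, 86.2 and 86.9 against 66.9, 76.2 and 82.3. The flank values, not those of the window, are the ones that separate by genotype. In covered bases 11q24 was higher and 7q35 and distal 19p13 were lower (tiles 12.5% and 10.4%). In median width 9q33 and 11q24 were higher and 14q11 was lower (tiles 6.56% and 7.10%). In pileup proximal 19p13 was higher (tiles 7.35% higher and 8.16% lower), and in the share at the lowest background 9q33 was lower (tiles 9.49% higher and 11.3% lower). Each had an exact permutation p of 0.1, the smallest possible, and the lowest adjusted p over the 13 windows was 0.488 for density and 0.433 for covered bases and width.

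As shares of the whole list, 19 half-megabase bins lay at least to 50% inside a window. None passed limma's test (Benjamini-Hochberg adjusted p under 0.05), where 10.4% of 5521 bins of the genome were higher and 3.95% lower in CRAMP1-KO. At an unadjusted p under 0.05, 1 of the 19 was higher and 0 were lower, beside 20.7% and 9.20% of all bins. That bin, chromosome 9 from 125 to 125.5 Mb with the 9q33 window, had 25, 22 and 19 peaks in WT against 21, 25 and 27 in CRAMP1-KO, a log2 change of 0.29 ± 0.11 (SE; limma adjusted p = 0.079). The median log2 change was 0.081 over the 19 bins and 0.055 over all bins.

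Many accessible regions of the clusters were found in a single library. Of the 445 regions 158 (35.5%) had a peak in a single library, against 30.7% of all regions, and 141 (31.7%) in all 6, against 37.3% of all regions and 42.1% of those in the flanks. The single-library regions fell to WT in 106 cases (67.1%), 79 of them to WT replicate 1, the longest list, and to CRAMP1-KO in 52. This is close to the split over all regions, where WT had 67.6% of the single-library regions. Regions with a peak in 3 of 3 libraries of a genotype and in 0 of 3 of the other numbered 3 for CRAMP1-KO and 5 for WT, where the genome has 0.767% and 1.14% of regions in these classes.

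All 3 CRAMP1-KO-only regions were in the 14q11 window. The strongest, chromosome 14 from 20295874 to 20296225, had summit pileups of 61, 43 and 87 in the CRAMP1-KO libraries and no peak in WT. The others, starting at 20693227 and 20415725, had pileups of 18, 19 and 28 and of 20, 16 and 24. The 5 WT-only regions lay in 11q12 (2), 11p11, 11q11 and 17p13. The strongest of them started at 58389916 and 58965394 on chromosome 11, with pileups of 30, 24 and 12 and of 25, 32 and 12, and at 55288148, with 22, 18 and 9. A region without a listed peak may still hold signal under the caller's threshold.

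In the 141 regions of the windows found in all 6 libraries, summit pileups were compared across the genome with limma on the log2 scale, after scaling each library to the median log ratio over 92505 shared regions. A region had to be called in all 6 libraries to be tested, so these are the steadier of the 445. Pileups of single regions are given as solved, before that scaling, and WT replicate 3 is the library with the lowest background, 2.55 against 3.02 to 5.12 in the others. Pileup rose in CRAMP1-KO at 17 (12.1%) and fell at 8 (5.67%), where 12.6% of all shared regions rose and 11.1% fell. In the 610 shared regions of the flanks 49 (8.03%) rose and 77 (12.6%) fell. The median log2 change was 0.039 in the windows, -0.045 in the flanks and -0.0037 over all shared regions. The width of the same regions changed at 0 of 141 by limma's adjusted p, where 0.00216% of shared regions were wider and 0.00% narrower. On simulated data the width fit called only 1% of 0.5 and 36% of 1.0 log2 changes, so 0 calls do not show that widths were unchanged. At an unadjusted p under 0.05 by limma, 12 (8.51%) were wider and 6 (4.26%) narrower, beside 7.52% and 5.02% of all shared regions.

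The 1q44 window (247.6 to 248.9 Mb) had 7 of the 17 regions that rose and 0 of those that fell, among 21 tested. These are 33.3% and 0%, beside 12.6% and 11.1% of all shared regions. Of the 21, 19 had a log2 change above 0, with a median of 0.28, while the 62 shared regions of its flanks had 7 that rose, 5 that fell and a median of -0.021. Over all its peaks, not only those of shared regions, the median pileup of the window against its flanks overlapped between the genotypes and was lower by the mean in CRAMP1-KO, with log2 ratios of -0.69 ± 0.26 in WT against -0.89 ± 0.65 in CRAMP1-KO (n = 3, exact permutation p = 0.7). The strongest region of the cluster, from 248100038 to 248100889, had summit pileups of 276, 283 and 200 in WT against 283, 299 and 380 in CRAMP1-KO. Scaled to the shared regions these became 209, 234 and 266 in WT against 347, 358 and 304 in CRAMP1-KO, which no longer overlap, a log2 change of 0.51 ± 0.094 (SE; limma adjusted p = 4.3e-05). Scaled to each library's lowest background the same change was 0.47 and missed the threshold (adjusted p = 0.059).

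The other named 1q44 regions that rose lie at the distal end of the window and are weaker. The region starting at 248894079 had pileups of 41, 29 and 17 in WT against 43, 34 and 51 in CRAMP1-KO (log2 change 0.79 ± 0.19 SE, limma adjusted p = 0.0016). The one at 248867809 had 27, 27 and 22 in WT against 34, 38 and 40 in CRAMP1-KO (0.72 ± 0.20, adjusted p = 0.0054), groups that do not overlap even before scaling. The one at 248858820 had 24, 25 and 9 in WT against 27, 16 and 37 in CRAMP1-KO (0.68 ± 0.23, adjusted p = 0.021) and lost its call in limma without the trend (adjusted p = 0.074) and when WT replicate 3 (0.20), CRAMP1-KO replicate 1 (0.14) or CRAMP1-KO replicate 3 (0.07) was left out. The count of 7 fell to 4 when libraries were scaled to their lowest background, in limma without the trend and without WT replicate 3. Under these settings 4.74%, 9.58% and 9.74% of all shared regions rose.

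Because every region of a library shares its scaling, the shared regions of each window were also set against those of its own flanks within a library, a comparison chosen after the 1q44 values had been seen. The median log2 pileup of the 21 shared 1q44 regions minus that of the flank regions was -0.76, -0.83 and -0.91 in WT against -0.36, -0.40 and -0.33 in CRAMP1-KO. These do not overlap, and the difference was 0.47 (exact permutation p = 0.1, 0.4 after adjustment over 12 windows). It lay between 0.43 and 0.51 with any single library left out. Of the other windows, proximal 19p13 with 5 shared regions also did not overlap, higher by 0.32 in CRAMP1-KO. The 12q13 window with 6 did not overlap either and was lower by 0.25, at -1.17 against -0.92 (both exact permutation p = 0.1, the smallest possible, adjusted 0.4). For this measure no share of separating tiles over the genome is given here. The windows that separate, 1q44 among them, thus have no genome rate beside them. For 12q13 the direction turned over all its peaks, where the log2 pileup ratio was -1.97 ± 0.35 in WT against -1.54 ± 0.28 in CRAMP1-KO (n = 3, exact permutation p = 0.2). Over all 141 regions the values were -0.51 ± 0.087 in WT against -0.56 ± 0.027 in CRAMP1-KO (n = 3, exact permutation p = 0.5).

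**Figure D4:**
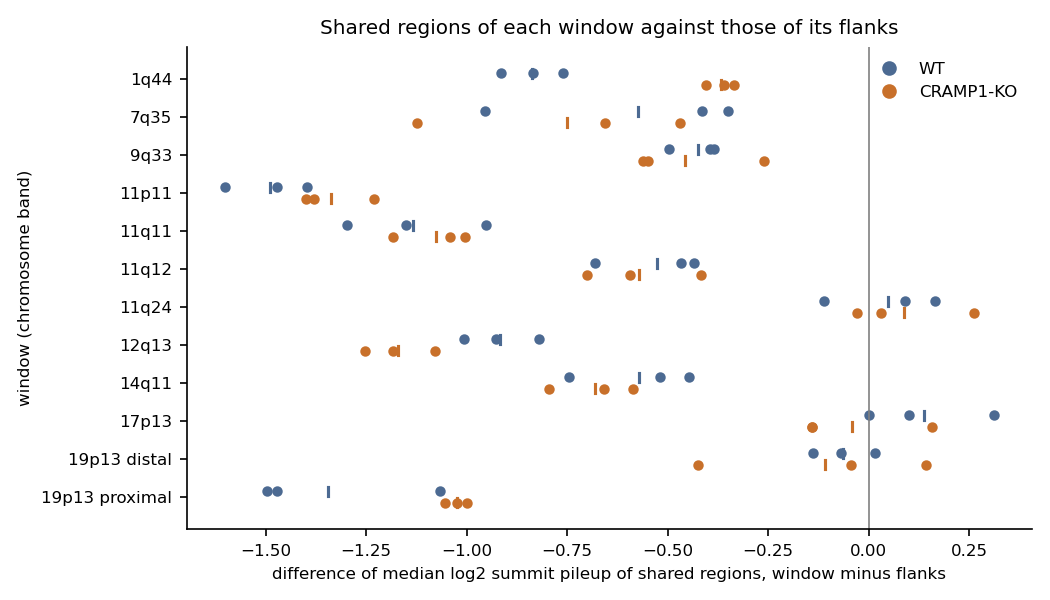
For each window with at least 3 shared regions (rows), points give the median log2 summit pileup of its shared regions minus that of the shared regions of its flanks (x axis) in the 3 WT (blue) and 3 CRAMP1-KO (orange) libraries, with group means as short bars. The 1q44 points lie from -0.91 to -0.76 in WT and from -0.40 to -0.33 in CRAMP1-KO, and in most other rows the colours overlap.

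Outside 1q44 the largest rise was at 11q24, chromosome 11 from 124147291 to 124148181. Its pileups were 14, 20 and 13 in WT against 37, 27 and 35 in CRAMP1-KO, which do not overlap, and the log2 change was 1.25 ± 0.22 (SE; limma adjusted p = 2.0e-05). The peaks there were 192, 488 and 256 bases wide in WT against 846, 723 and 855 in CRAMP1-KO, a log2 width change of 1.39 that missed the threshold over all regions (limma adjusted p = 0.19). In the 11q11 window the region from 55987020 to 55988034 had pileups of 31, 38 and 17 in WT against 36, 41 and 67 in CRAMP1-KO (log2 change 0.93 ± 0.19 SE, limma adjusted p = 1.7e-04). It was the only called region among the 7 tested of that window, or 14.3%, near the 12.6% of all shared regions that rose.

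The largest fall was at 14q11, from 20737228 to 20737817, with pileups of 67, 56 and 37 in WT against 18, 22 and 37 in CRAMP1-KO (log2 change -0.92 ± 0.19 SE, limma adjusted p = 1.7e-04). In that window 3 regions rose (15.8%) and 2 fell (10.5%) among 19, near the 12.6% and 11.1% of all shared regions. It also had the 3 CRAMP1-KO-only regions. Its second fall started at 20292022, a few kb before the strongest of those, with pileups of 290, 263 and 155 in WT against 146, 134 and 207 in CRAMP1-KO (log2 change -0.35 ± 0.092 SE, limma adjusted p = 0.0032; 0.11 when scaled to the lowest background).

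In the 11q12 window 4 regions fell (9.30%) and 2 rose (4.65%) among 43, beside 11.1% and 12.6% of all shared regions. The region from 59035188 to 59036008 had 73, 80 and 44 in WT against 23, 33 and 42 in CRAMP1-KO (log2 change -0.84 ± 0.17 SE, limma adjusted p = 2.0e-04), and that from 58572324 had 55, 47 and 35 against 21, 19 and 36 (-0.72 ± 0.19, adjusted p = 0.0036). Another, at 58393479, with 77, 57 and 28 against 32, 26 and 36 (-0.52, adjusted p = 0.036), and the fourth, at 58395219 (-0.39, adjusted p = 0.045), lie a few kb beyond the WT-only region at 58389916. The next region, at 58397129, goes the other way: it had pileups of 44, 38 and 58 in CRAMP1-KO and a peak in 1 WT library, with 44 in WT replicate 1. The call at 58395219 was lost with libraries scaled to their lowest background (adjusted p = 0.13), in limma without the trend (0.11), and when WT replicate 1 (0.14), WT replicate 2 (0.19) or CRAMP1-KO replicate 3 (0.30) was left out. The call at 58393479 was lost when libraries were scaled to their lowest background (adjusted p = 0.065), in limma without the trend (0.071), and when WT replicate 1 (0.22), WT replicate 2 (0.095), CRAMP1-KO replicate 2 (0.091) or CRAMP1-KO replicate 3 (0.14) was left out. In 12q13 the region at 55877831 fell by 0.43 on the log2 scale, from 86, 77 and 50 to 41, 42 and 56 (limma adjusted p = 0.03), a call also lost under that scaling (0.11) and without WT replicate 1, 2 or 3 (0.064, 0.072 and 0.069) or CRAMP1-KO replicate 3 (0.11).

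**Figure D5:**
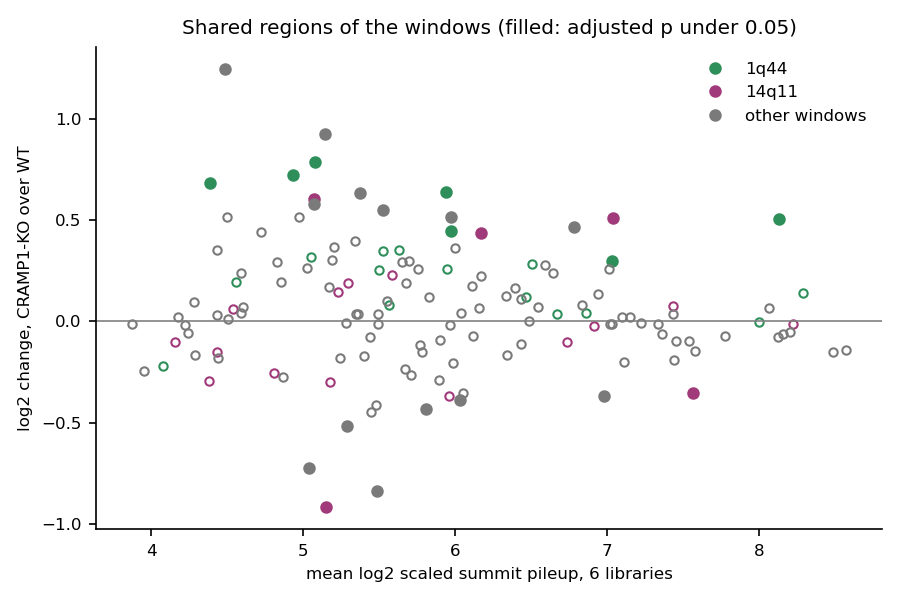
Each point is 1 of the 141 shared regions, with its mean log2 scaled summit pileup over the 6 libraries on the x axis and its log2 change in CRAMP1-KO over WT on the y axis; 1q44 is green, 14q11 purple, the other windows grey, and filled points have a limma adjusted p under 0.05. All 7 filled 1q44 points are above 0, and the called changes range from -0.92 to 1.25.

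The strongest regions of the other windows did not pass the test. The strongest region of 11q12, from 58873791 to 58875488, had 470, 528 and 310 in WT against 313, 318 and 412 in CRAMP1-KO (log2 change -0.14, limma adjusted p = 0.29). That of 17p13, from 2951903, had 453, 457 and 315 in WT against 269, 329 and 385 in CRAMP1-KO (-0.15, adjusted p = 0.26), and that of 14q11, from 20136376, had 373, 337 and 259 against 239, 247 and 385 (-0.011, adjusted p = 0.95). The strongest regions of 7q35, 9q33, 11p11, 11q11, 11q24, 12q13 and both 19p13 windows had log2 changes between -0.35, at distal 19p13, and 0.19, at 11p11, with adjusted p from 0.096 to 0.95. At distal 19p13 the pileups were 106, 104 and 46 in WT against 33, 59 and 89 in CRAMP1-KO, and the call was made when WT replicate 3 or CRAMP1-KO replicate 2 or 3 was left out (adjusted p = 0.02, 0.041 and 0.028).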

How the data were processed

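ATAC-seq of U2OS cells (50000 cells per library, 30 min of tagmentation, 7 PCR cycles, per the labels) gave 6 peak lists, 1 per library. The submitters' processing notes name bcl2fastq 2.20.0, cutadapt 3.4, BWA 0.7.17-r1188, MACS3 and hg19; any peak filter, read shift or duplicate step is not given in the sources used here. Nor is the handling of reads with several alignments, which bears on near-identical receptor copies and was not tested. Deposited columns hold a score, the fold enrichment (a ratio) and the −log10 p and −log10 q of each summit, as the authors' caller wrote them. From fold enrichment and −log10 p the pileup and background were solved, and 100% of pileups were whole within 0.01.

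Peaks were placed by summit. Flanks are as long as the window on each side, less other windows, stretches past the outermost peak and the chromosome's longest stretch without peaks; they were not screened for receptor genes. Regions merged peaks with at least 1 bp of overlap on chromosomes 1 to 22 and X. Two-sided exact permutation tests used the 20 label assignments. limma 3.58.1 (R 4.3.3, with trend) was fitted on all regions, or on 0.5-Mb bins with a mean of at least 3 peaks, with Benjamini-Hochberg adjustment at 0.05; single windows and bins took a pseudocount of 0.5 peaks. On simulated data the pileup fit called 7% of 0.5 and 55% of 1.0 log2 changes. Far fewer regions were changed there than were called in the real data, which makes the adjustment stricter. These shares are therefore not the sensitivity of the calls given above. Regions are named by this rule: the strongest per window by median −log10 q among shared regions, up to 5 per direction called by limma, and up to 3 per direction of genotype-specific ones; those at 20292022 and 58395219 were named after their values were seen. The members, windows and lists were chosen with earlier results of these data known. Gene names and starts come from RefSeq (GRCh38.p14); no coordinate was converted.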

Additional observations from a re-analysis of the deposited data

How the results depend on the processing

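With 3 against 3 libraries no exact permutation test of the pooled measures could go below 0.1, so directions only are compared here. The difference in log2 pileup ratio turned to -0.043 with only peaks of −log10 q of at least 5, the log2 background ratio to -0.018 with flanks of a shorter length, and the share of peaks to -0.12 per 10000 without the 1q44 and 11q12 windows (a setting added after seeing the data); the cause was not tested. Leaving out each library in turn, the share ranged from -0.15 to 0.72 per 10000, log2 covered bases from -0.012 to 0.12, log2 width from -0.072 to 0.032 and log2 background from -0.060 to 0.077. Windows without overlap numbered 1 in density, 1 in covered bases and 3 in pileup with −log10 q of at least 5; 1 in density and 3 in pileup with lists of equal length; and 1 in width and 2 in pileup with the shorter flanks. Leaving out a library gave 2 to 6 in density, 3 to 5 in covered bases, 3 to 5 in width, 1 to 3 in pileup and 1 to 4 in the share at the lowest background, where fewer libraries separate more easily. Shared regions called for pileup numbered 8 higher and 3 lower when scaled to the lowest background (5.67% and 2.13%, beside 4.74% and 4.71% of all shared regions). With a library left out, 5 to 10 were lower, or 3.45% to 6.90%, beside 6.96% to 10.1% of all shared regions. In limma without trend 1 was narrower, or 0.709%, beside 0.0205% of all shared regions. Genotype-specific regions numbered 1 for WT with −log10 q of at least 5, 6 for CRAMP1-KO and 3 for WT with lists of equal length, and 3 to 10 for CRAMP1-KO and 5 to 14 for WT when a library was left out (10 without WT replicate 1, 14 without WT replicate 2). For these regions and for windows without overlap, shares over the genome are given for the main setting only. Changes of these counts between settings therefore cannot be read as particular to the windows.

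Among single windows, the density difference turned at 11p11 (-0.039 with stronger peaks, -0.039 with shorter flanks, -0.16 to 0.34 with a library left out), 11q24 (0.0053 with stronger peaks), 12q13 (0.074) and 17p13 (-0.068) with lists of equal length, and, with a library left out, at 9q33 (-0.19 to 0.043), 17p13 (-0.079 to 0.21) and 1q44 (-0.0050 to 0.22). Among regions with no call, 11q11 at 55639994 turned to -0.0036 when scaled to the lowest background and ranged from -0.010 to 0.083 with a library left out, 14q11 at 20136376 from -0.068 to 0.075 and 9q33 at 125590092 from -0.080 to 0.070. A replicate block left 17 higher and 8 lower pileup calls and changed no other call, and blocked permutation of the density gave p = 1 for the difference of 0.045. Same-numbered WT and CRAMP1-KO libraries had correlations of 0.056, 0.062 and -0.090, within the -0.155 to 0.098 of differently numbered ones. No pairing by number was thus seen. With so few libraries this cannot tell whether same-numbered ones were prepared together, and the labels do not say. Read depth is unknown, and weak peaks under the caller's threshold are not seen.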
